A study of Mus musculus with 6 samples.

Results

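The p38 and JNK kinase genes are 9 genes, chosen by name from the GENCODE annotation of the mouse genome build GRCm38/mm10, which lists 55341 gene symbols, 21923 of them protein-coding. They comprise 4 p38 genes (Mapk14, Mapk11, Mapk12 and Mapk13), 3 JNK genes (Mapk8, Mapk9 and Mapk10) and 2 genes of the upstream kinases that phosphorylate p38 (Map2k3 and Map2k6). Colonic organoids, epithelial cultures from wt C57BL/6 mouse colon, were either left untreated (wt) or kept in 40 ng/ml TNFα over 3 weeks (wt+TNFα). Each condition has 1 library for each mark besides its input, so every value below rests on 1 library and has no replicate error. Whether the libraries came from separate mice or organoid lines is not given in the sources used here, and no test between the conditions was possible.

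The p38 and JNK kinases are stress-activated protein kinases. Inflammatory cytokines such as TNFα act through receptor adaptors, MAP3K and MAP2K enzymes to phosphorylate them, and they in turn phosphorylate transcription factors and other kinases that act in inflammation, cell death and senescence. At gene starts H3K4me3 is typical of active or poised promoters, and H3K27me3, deposited by Polycomb repressive complex 2, is typical of silenced ones. The study asked whether TNFα altered these marks in organoids, and senescence genes were among its interests.

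A promoter here is the 1000 bp on each side of every annotated transcript start of a gene, and the measure is the percentage of promoter bases under a called peak. A gene lost or gained a mark by base when at least 1 promoter base was under a peak in one condition and not in the other. Fold enrichment is the ChIP signal of a peak over its local background. It was computed separately for each library, so its percentile within the peak list of that library is given beside it, and fold enrichments are not compared between lists. 

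The lists differed in extent. The H3K27me3 list of wt held 30594 peaks over 102 Mb, and that of wt+TNFα 60540 peaks over 303 Mb. The H3K4me3 lists held 11552 peaks (18.2 Mb) and 11894 peaks (20 Mb). The libraries stood apart on the sex chromosomes: H3K27me3 extended over 0.597 Mb of chromosome X in the wt library and 74.7 Mb in the wt+TNFα library, and the 3 H3K4me3 peaks on chromosome Y in wt had no counterpart (0) in wt+TNFα. Since the source mice are not known, the treatment and a difference in the origin of the organoids cannot be told apart in any comparison below. All 9 kinase genes are autosomal. On the autosomes the H3K27me3 length was 101 Mb for wt against 228 Mb for wt+TNFα. When both lists were limited to equal autosomal length, only wt+TNFα peaks of H3K27me3 were removed, so a loss could not disappear under that limit and it does not bear on the losses below. The gain at Mapk10 became a loss under it. Removing wt+TNFα peaks alone can make that change, so the limit does not bear on the gain either. No list used here held a peak in the first 9.24 Mb of chromosome 1, which holds 15 protein-coding genes, so a gene with no listed peak is not read as unmarked, and the background percentages below count such genes as having none. Among 10 marker genes of colonic epithelium, 9 had promoter H3K4me3 in wt and 8 in wt+TNFα, the difference being Krt20, a keratin of mature colonocytes. None of 6 fibroblast, 6 immune and 4 endothelial markers had promoter H3K4me3 in either condition.

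At the promoters of the kinase genes, 6 of 9 genes (Mapk14, Mapk13, Mapk8, Mapk9, Map2k3 and Map2k6) had H3K4me3 in both conditions and H3K27me3 in neither. That state held for 42.4% of protein-coding genes. Mapk11 had H3K4me3 in both conditions and H3K27me3 in wt alone (0.602% of protein-coding genes). Mapk12 had H3K27me3 in both conditions and H3K4me3 in wt+TNFα alone (0.766%). Mapk10 had H3K27me3 in both conditions and no H3K4me3 (15.1%). Thus the differences in mark between the conditions lay at the paired genes Mapk11 and Mapk12 and at Mapk10, while the other 6 genes differed in the edges and ranks of their H3K4me3 peaks.

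**Figure D1:**
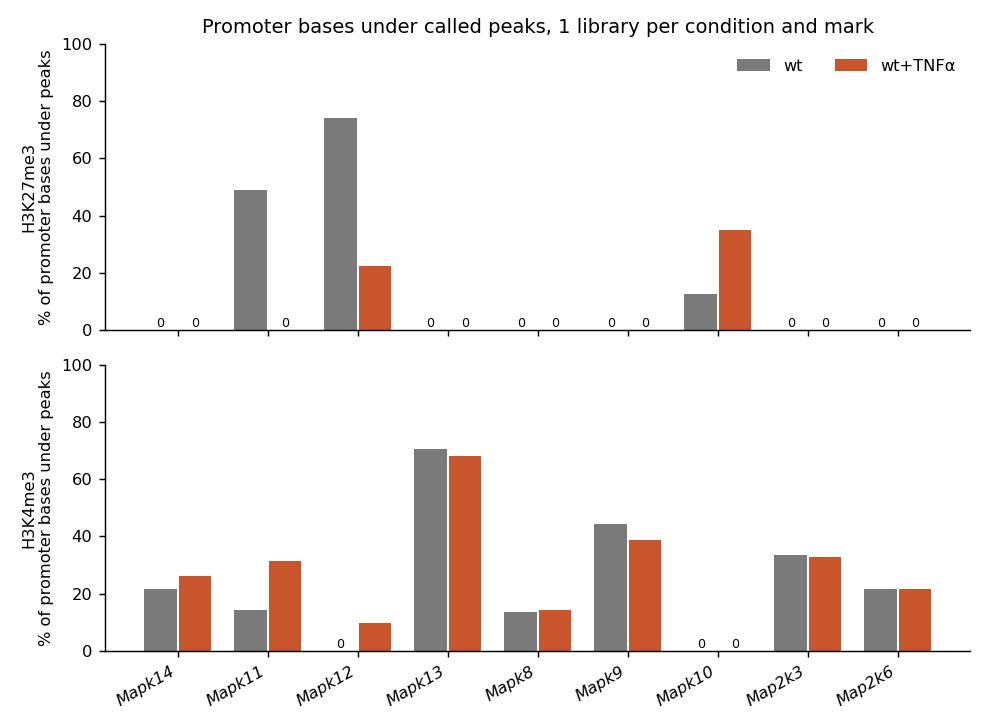
Percentage of promoter bases under H3K27me3 peaks (upper) and H3K4me3 peaks (lower) for the 9 kinase genes in wt (grey) and wt+TNFα (orange), with 1 library per bar and therefore no error bars. H3K27me3 went from 49.0% to 0% at Mapk11 and from 74.0% to 22.6% at Mapk12, and from 12.5% to 35.1% at Mapk10.

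Counted by base, H3K27me3 was lost at 2 of 9 kinase genes, Mapk11 and Mapk12, against 5.22% of protein-coding genes. Of protein-coding genes with promoter H3K27me3 in wt, 24.1% lost bases of it, and of the 3 kinase genes with it, 2 did. H3K27me3 was gained at 1 of 9, Mapk10, against a background of 20.6%. An H3K27me3 promoter peak in wt alone was found at 1 of 9 (background 1.21%) and in wt+TNFα alone at 0 of 9 (background 9.0%).

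H3K4me3 was gained at 4 of 9 kinase genes, Mapk14, Mapk11, Mapk12 and Mapk8, and lost at the other 4 genes that carried it, Mapk13, Mapk9, Map2k3 and Map2k6. The backgrounds were 40.9% and 21.1% of protein-coding genes, and 79.9% of protein-coding genes with promoter H3K4me3 in wt+TNFα gained bases of it, so a gain by base as such does not set these genes apart. Of the 11066 protein-coding genes with promoter H3K4me3 in wt, 4633 lost bases of it, against 4 of 7 kinase genes. The lost bases were 51 bp at Mapk13, 232 bp at Mapk9, 53 bp at Map2k3 and 14 bp at Map2k6. A loss by base as such does not set these genes apart either. A peak of H3K4me3 in wt+TNFα alone was called at 1 of 9, Mapk12 (background 1.49%), and in wt alone at 0 of 9 (background 0.744%). At 2 of 9, Mapk11 and Mapk12, H3K27me3 was lost and H3K4me3 gained (background 2.18%). With whole peaks subtracted neither gene had both calls, and with H3K27me3 peaks of −log10 q of at least 2 the loss at Mapk12 was not called. The H3K4me3 gain was not called at either gene with peaks above the median −log10 q alone, nor at Mapk12 with equal autosomal length. These 2 genes are neighbours. The study names both as senescence genes whose higher expression with TNFα went with changes in this same ChIP-seq. They had thus been picked out from these data already and are not independent evidence of a direction.

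The promoters of Mapk11, Mapk12 and Mapk10, where a mark appeared or disappeared at the main start, are shown for their letters. They come from RefSeq on build GRCm38.p6 and run 5′ to 3′ along the gene from 250 bases before its RefSeq start to 50 bases after. They lie on the minus strand at chr15:89149557-89149856, chr15:89140654-89140953 and chr5:103211285-103211584. The RefSeq start of Mapk11 lies a short way downstream of the GENCODE first base used elsewhere here, so its window is shifted from that base. Capitals mark bases under an H3K4me3 peak in wt+TNFα and under none in wt.
Mapk11: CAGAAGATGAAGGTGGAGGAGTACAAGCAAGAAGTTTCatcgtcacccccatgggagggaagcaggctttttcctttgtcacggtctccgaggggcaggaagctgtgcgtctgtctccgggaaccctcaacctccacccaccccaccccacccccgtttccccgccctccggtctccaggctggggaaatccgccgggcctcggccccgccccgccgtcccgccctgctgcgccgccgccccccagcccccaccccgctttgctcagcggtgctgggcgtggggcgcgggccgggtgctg
Mapk12: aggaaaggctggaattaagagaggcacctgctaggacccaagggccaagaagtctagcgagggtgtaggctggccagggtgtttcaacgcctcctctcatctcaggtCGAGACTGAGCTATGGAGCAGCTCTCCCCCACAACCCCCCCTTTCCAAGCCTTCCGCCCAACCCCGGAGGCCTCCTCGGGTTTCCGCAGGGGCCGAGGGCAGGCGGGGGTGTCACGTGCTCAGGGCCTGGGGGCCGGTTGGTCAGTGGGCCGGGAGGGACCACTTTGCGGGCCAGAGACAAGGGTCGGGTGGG
Mapk10: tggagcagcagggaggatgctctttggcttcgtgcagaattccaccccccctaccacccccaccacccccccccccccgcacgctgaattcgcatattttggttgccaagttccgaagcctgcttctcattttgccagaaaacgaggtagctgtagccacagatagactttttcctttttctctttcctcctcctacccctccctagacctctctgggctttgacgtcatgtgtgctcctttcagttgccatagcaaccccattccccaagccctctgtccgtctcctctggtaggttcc

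In wt, H3K27me3 lay over all 300 bases of the Mapk11 and Mapk12 windows and over 0 in wt+TNFα. The Mapk10 window went the other way, from 0 to 300 bases. H3K4me3 covered 262 bases of the Mapk11 window in wt and 300 in wt+TNFα, so that 38 bases at its upstream end were new. In the Mapk12 window 193 bases were new, from none in wt, and the Mapk10 window had no H3K4me3 in either condition.

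CpG dinucleotides, which are dense at many H3K4me3-marked promoters, numbered 24 in the Mapk11 window, 14 in that of Mapk12 and 8 in that of Mapk10. Over 21255 RefSeq promoter windows of 17486 genes, the median was 13, with quartiles of 4 and 24. The 6 genes with H3K4me3 alone had between 14 (Map2k6) and 45 (Mapk8) in the window of their first start. Thus Mapk12 and Map2k6 had the same CpG count, and H3K27me3 was called at Mapk12 but not at Map2k6. The letters TGANTCA, a core motif of AP-1, the Jun and Fos factors downstream of JNK, were found on either strand in 6.99% of promoter windows. Among the kinase genes they were found in the Map2k6 window alone, upstream of its start. The letters GGANTTTCC, a form of the NF-κB motif, were in 1.28% of promoter windows and in none of the kinase genes' windows. A match is a description of letters and not a binding site.

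Mapk14 encodes p38α, the most widely expressed p38 kinase. The gene lies on the plus strand of chromosome 17 from 28691329 to 28748406. No H3K27me3 peak was called at its promoters, and the nearest one was 131 kb from the gene in wt and 14.9 kb in wt+TNFα. Its H3K4me3 peak was 1578 bp wide in wt, with a fold enrichment of 51.2 at the 96.4th percentile of the wt list. In wt+TNFα the peak was 1887 bp wide, with a fold enrichment of 43.7 at the 88.8th percentile. The peak was among the strongest of its list in both conditions. It reached 59 bp further upstream in wt+TNFα and 250 bp further into an intron, so that H3K4me3 went from 21.8% to 26.1% of the promoter bases. The same 6 of 8 transcript starts lay under it in both conditions. In wt+TNFα its edge also covered 37 bp of the promoters of Slc26a8, the neighbouring gene of an anion transporter.

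Mapk11 encodes p38β, the closest relative of p38α. The gene occupies bases 89142486 to 89149628 of chromosome 15, minus strand. In wt, 1 H3K27me3 peak of 2535 bp covered its main start, from 705 bp upstream of the first base to 1829 bp downstream, with 231 bp in exons and 1599 bp in introns. The peak had a fold enrichment of 2.66 (90.5th percentile of the wt list) and a −log10 q of 2.90. In wt+TNFα no H3K27me3 peak was called in the gene, and the nearest one began 3.20 kb away. Of 4 transcript starts, H3K27me3 covered 2 in wt and 0 in wt+TNFα. Within 1000 bp of the main start it went from 85.3% of bases to 0%.

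H3K4me3 was called at the Mapk11 start in both conditions. In wt the peak was 650 bp wide with a fold enrichment of 12.2, at the 19.8th percentile of the wt list by fold enrichment and at the 9.9th by width. In wt+TNFα it was 1469 bp wide with a fold enrichment of 28.5, at the 53.7th percentile by fold enrichment and at the 47.9th by width. A narrow and weak peak of the wt list thus matched a peak near the middle of the wt+TNFα list. The summit, the position of highest signal, was 107 bp downstream of the first base in wt and 116 bp in wt+TNFα. The downstream edge moved from 459 bp to 1188 bp into the gene, and the 729 bp of this extension were all intron. The upstream edge moved by 90 bp. In wt all 650 bp of the H3K4me3 peak also lay under H3K27me3, and in wt+TNFα 0 bp carried both marks.

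Mapk12 encodes p38γ, a p38 kinase best known from muscle. It lies downstream of Mapk11 on the same strand, from 89130584 to 89140703. In wt, H3K27me3 formed 1 peak, 8276 bp wide, whose fold enrichment was 2.42 (85.1th percentile) and whose −log10 q was 1.97. It ran from 2294 bp upstream of the first base to 5981 bp downstream. In wt+TNFα there were 2 shorter peaks within its extent, both inside the gene. The one nearer the start, 1413 to 2657 bp downstream, was 1245 bp wide with a fold enrichment of 1.79 (20.2th percentile) and a −log10 q of 0.961. The other, 4364 to 5622 bp downstream, was 1259 bp wide with a fold enrichment of 2.06 (78.1th percentile) and a −log10 q of 1.86. H3K27me3 was therefore not called at the start of the gene in wt+TNFα but was still called within its body. All 3 of these peaks fell short of the q-value cut that the reporting summary states for H3K27me3.

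Of 7 annotated transcript starts of Mapk12, 6 lay under H3K27me3 in wt and 1 in wt+TNFα, the latter 5085 bp downstream of the first base. Within 1000 bp of the main start H3K27me3 went from 100% of bases to 0%. An H3K4me3 peak of 780 bp was called there in wt+TNFα alone, from 143 bp upstream of the first base to 636 bp downstream, with its summit at 294 bp. Within the gene it lay on 576 exonic and 61 intronic bp, and it covered 3 of the 7 starts. Its fold enrichment of 9.55 was at the 13.4th percentile of the wt+TNFα list and its −log10 q was 33.2, so it was among the weaker peaks called. No base of the Mapk12 promoters carried both marks in either condition.

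Over the interval from the end of Mapk12 to the first base of Mapk11 (chr15:89130584-89149628, 19045 bp, minus strand), H3K27me3 covered 53.1% of bases in wt and 13.1% in wt+TNFα. It was lost from 7602 bp and gained on 0 bp, a change of -39.9 percentage points. The change was -9.6 points when whole peaks were subtracted or when H3K27me3 peaks with a −log10 q below 2 were removed. H3K4me3 covered 2.42% in wt and 10.3% in wt+TNFα, gained on 1509 bp and lost from 0 bp. The stretch of 1782 bp between the genes went from 100% to 0% under H3K27me3. Within the genes the shares went from 59.1% to 24.7% for Mapk12 and from 32.8% to 0% for Mapk11. In wt the H3K27me3 peak of Mapk12 thus spanned the whole stretch between the genes and ended inside Mapk11.

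**Figure D2:**
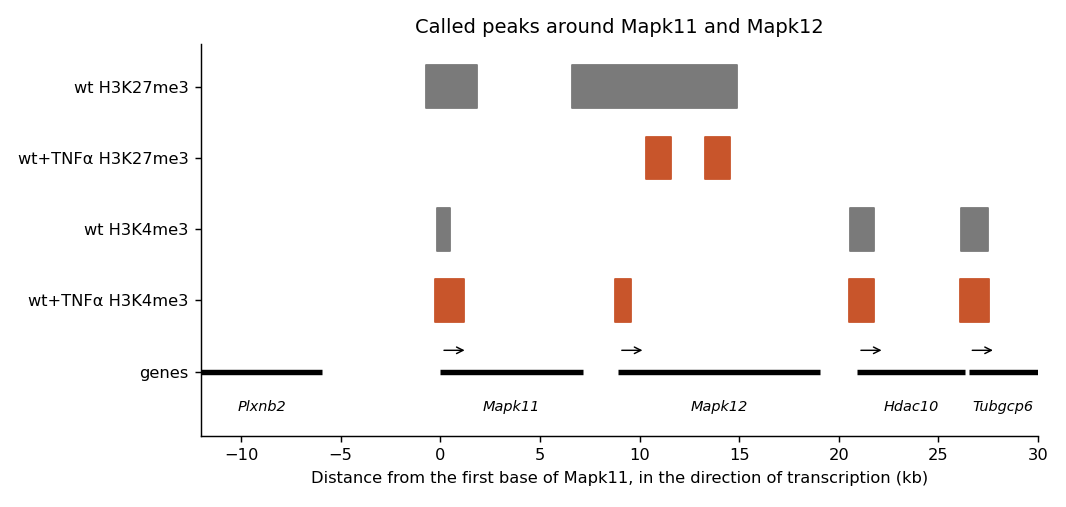
Called peaks around Mapk11 and Mapk12, drawn by distance in kb from the first base of Mapk11 in the direction of transcription, for H3K27me3 and H3K4me3 in wt (grey) and wt+TNFα (orange), with gene bodies in black and arrows for the direction of genes that start within the map. The 2 wt H3K27me3 peaks have no counterpart in wt+TNFα other than 2 short peaks within Mapk12, while the H3K4me3 peaks at Hdac10 and Tubgcp6 are present in both conditions.

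Of the neighbouring genes, Hdac10 and Tubgcp6, beyond the end of Mapk12, had H3K4me3 in both lists. At the start of Hdac10, a histone deacetylase gene, the H3K4me3 peak had a fold enrichment of 11.4 in wt (18.1th percentile) and 13.5 in wt+TNFα (21.5th percentile). At Tubgcp6, which encodes a component of the γ-tubulin ring complex, the fold enrichments were 29.2 (61.6th percentile) and 40.6 (83.5th percentile).

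The genes with promoter values nearest to those of Mapk11 and Mapk12 were chosen for that likeness, and so share the pattern by construction. The distance was Euclidean over the promoter percentages in the 4 lists, across 20778 autosomal protein-coding genes. Nearest to Mapk11 was Cmtm7, at a distance of 1.90 percentage points, whose H3K27me3 went from 50.3% to 0.745% and whose H3K4me3 went from 13.2% to 31.6%. Ropn1l, at 8.02 points, Arhgef17, at 8.18, and Ifnar2, at 9.62, were among the next nearest. Mapk12 had no such close match. Its nearest gene was Itgb8, an integrin subunit gene, at 11.6 points, where H3K27me3 went from 76.1% to 28.7%. Neither Itgb8 nor the next 4 genes, Nanos3, Oxct2a, Camk2a and Cyp2j13, had H3K4me3 in either condition.

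Mapk13 encodes p38δ, a p38 kinase found in epithelia, and lies next to Mapk14 on chromosome 17 (28769297 to 28780233, plus strand). H3K4me3 covered 70.5% of its promoter bases in wt and 68.1% in wt+TNFα. Its starts lie close together, so that its promoters form 1 window, against 2 to 5 for the other genes, and all 9 of its starts were covered in both. The peak was 2619 bp wide in wt (fold enrichment 33.7, 71.7th percentile). In wt+TNFα it was 2534 bp wide (fold enrichment 33.7, 68.0th percentile). Within 1000 bp of the main start the shares were 68.7% and 66.2%, below those of Map2k3 (100% and 97.4%) and Mapk9 (91.3% and 81.5%). Within the promoter, only 51 bp at the upstream edge of the peak were called in wt alone. Beyond the promoter, the downstream edge was at 2244 bp in wt and 2210 bp in wt+TNFα. The nearest H3K27me3 peak was 159 kb from the gene in wt and 92.9 kb in wt+TNFα.

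Of the JNK genes, Mapk8 and Mapk9 encode the broadly expressed JNK1 and JNK2. Mapk8 (chromosome 14, 33377898 to 33447158, minus strand) had an H3K4me3 peak of 1182 bp in wt (fold enrichment 41.3, 86.0th percentile) and of 1220 bp in wt+TNFα (fold enrichment 49.1, 95.2th percentile). The gain by base was 43 bp at the upstream edge, and 5 of 10 starts were covered in both conditions. H3K27me3 was called 1.82 kb from the gene in wt and 1.26 kb in wt+TNFα, and not at its promoters. Mapk9 (chromosome 11, 49846751 to 49886421, plus strand) had an H3K4me3 peak of 1862 bp in wt (fold enrichment 22.6, 44.6th percentile). In wt+TNFα the peak was 1630 bp wide (fold enrichment 28.9, 55.0th percentile). It was narrower by 133 bp upstream and 99 bp within an intron, while its rank was higher. The same 4 of 7 starts were covered.

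Mapk10 encodes JNK3, the JNK kinase known from brain and heart. The gene occupies bases 102907948 to 103211334 of chromosome 5, minus strand, and was the only kinase gene with no H3K4me3 peak in either condition. In wt an H3K27me3 peak of 1541 bp lay inside the gene, from 1563 to 3103 bp downstream of the first base, with a fold enrichment of 1.91 (1.8th percentile) and a −log10 q of 0.441. In wt+TNFα a peak of 4827 bp contained it and ran from 1119 bp upstream of the first base to 3707 bp downstream, with a fold enrichment of 2.14 (85.3th percentile) and a −log10 q of 2.19. The wt peak was thus among the weakest of its list, and its q-value did not reach the stated cut for H3K27me3. H3K27me3 covered 1 of 9 starts in wt and 5 in wt+TNFα, and went from 0% to 100% within 1000 bp of the main start. Gain of H3K27me3 was called at Mapk10 under 10 of 12 alternative settings. It was not called with whole peaks subtracted, nor when the wt+TNFα peaks were limited to the autosomal length of the wt list. Under that limit the gene was called as losing H3K27me3, and the number of kinase genes gaining it was 0. The limit removed wt+TNFα peaks alone and kept the weak wt peak. It can turn a gain into a loss but not the reverse, so it does not bear on the direction. 

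Map2k3 and Map2k6 encode MKK3 and MKK6, which phosphorylate p38 on the threonine and tyrosine of its activation loop. Map2k3 (chromosome 11, 60932033 to 60952811, plus strand) had an H3K4me3 peak of 3128 bp in wt (fold enrichment 35.5, 75.7th percentile). In wt+TNFα the peak was 3093 bp wide (fold enrichment 23.5, 41.4th percentile). Its width hardly differed, whereas its rank was 34.3 percentile points lower in wt+TNFα. The peak also covered 1854 bp of the promoters of the antisense gene Map2k3os in wt and 1782 bp in wt+TNFα, and ChIP-seq does not separate the strands. The nearest H3K27me3 peak lay 10.0 kb from the gene in wt and 8.23 kb in wt+TNFα.

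Map2k6 (chromosome 11, 110399122 to 110525522, plus strand) had the weakest H3K4me3 peak of the 6 genes with H3K4me3 alone. It was 2405 bp wide in wt (fold enrichment 17.6, 32.1th percentile). In wt+TNFα it was 1728 bp wide (fold enrichment 16.1, 26.3th percentile). The width ratio was 0.719. Most of the difference lay beyond the promoter windows, and 14 bp of promoter were called in wt alone. In both conditions 2 of 4 starts were covered, and the nearest H3K27me3 peak was 52.4 kb from the gene.

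**Figure D3:**
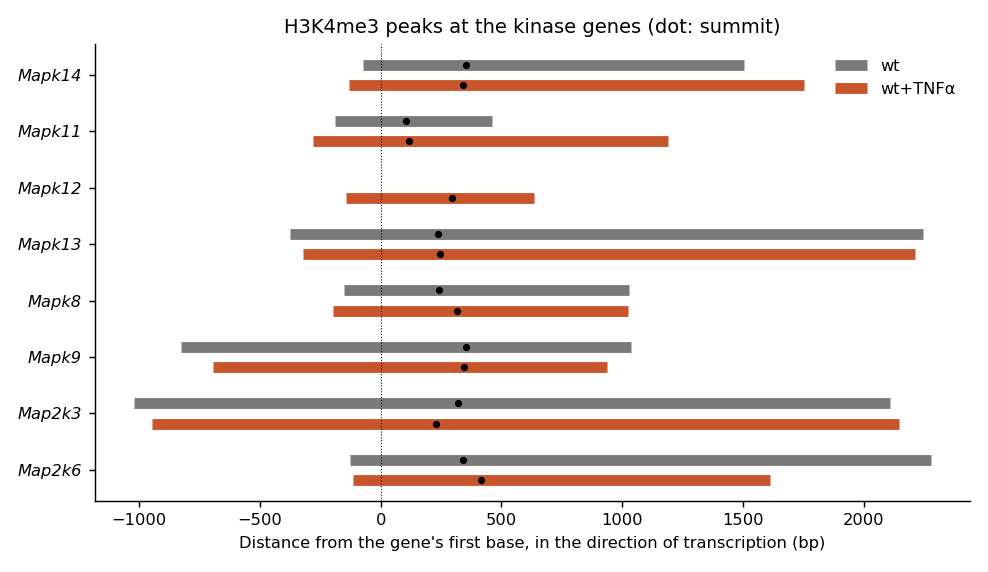
H3K4me3 peaks of the 8 kinase genes that had one, in wt (grey) and wt+TNFα (orange), by distance in bp from the first base of the gene in the direction of transcription, with a dot at each summit. The peak of Mapk11 extends to 459 bp in wt and 1188 bp in wt+TNFα, Mapk12 has a peak in wt+TNFα alone, and the Map2k6 peak ends at 2276 bp in wt and 1613 bp in wt+TNFα.

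Among 10903 protein-coding genes with promoter H3K4me3 in both conditions, the strongest promoter peak in wt+TNFα was at a median of 1.07 times its width in wt, with quartiles of 1.00 and 1.15. Mapk11, at 2.26 times, was the only one of 7 kinase genes in this set that at least doubled, against 1.27% of the set. The ratio of Mapk14 was 1.196, and the other 5 ranged from 0.719 (Map2k6) to 1.032 (Mapk8), below the median of the set. The rank by fold enrichment moved by a median of 1.10 percentile points, with quartiles of -8.85 and 11.2. Mapk11 moved up by 33.9 points, and 396 genes of the set moved up at least as far. Map2k3 moved by -34.3 points, and 240 genes moved down at least as far. The other 5 kinase genes moved by -7.6 to 10.4 points, inside the quartiles. With 1 library per condition, no order among the kinase genes can be held apart from error.

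**Figure D4:**
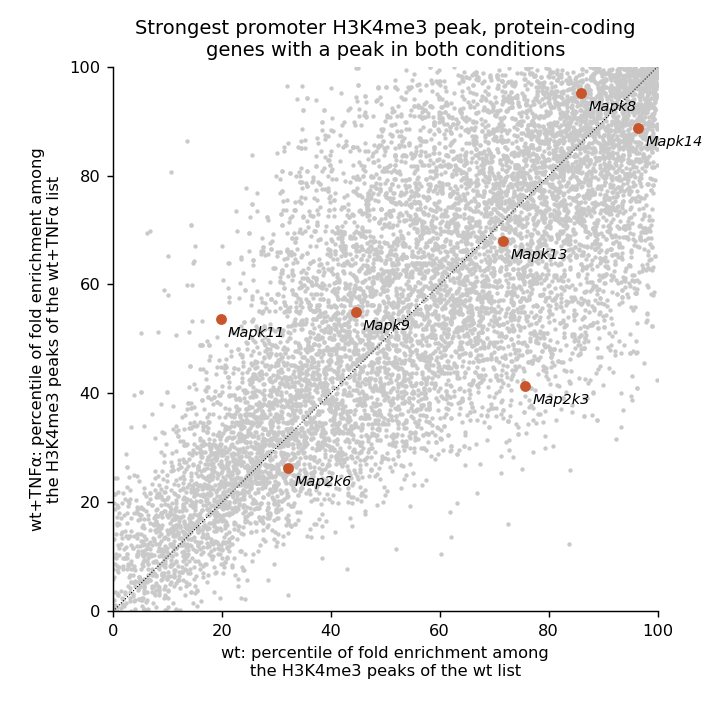
Percentile of the fold enrichment of the strongest promoter H3K4me3 peak within the wt list (horizontal) and within the wt+TNFα list (vertical) for 10903 protein-coding genes with a peak in both (grey) and the 7 kinase genes among them (orange), with the line of equal rank dotted. Mapk11 lies above the line at 19.8 and 53.7, and Map2k3 below it at 75.7 and 41.4.

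All 9 genes together have 63 annotated transcript starts. H3K27me3 lay over 9 of them without TNFα and over 6 with it, and H3K4me3 over 31 and 34. The differences came from Mapk11, Mapk12 and Mapk10, since each of the other 6 genes had the same number of starts under H3K4me3 in both conditions and 0 under H3K27me3. The starts of a gene share peaks and are not independent.

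**Figure D5:**
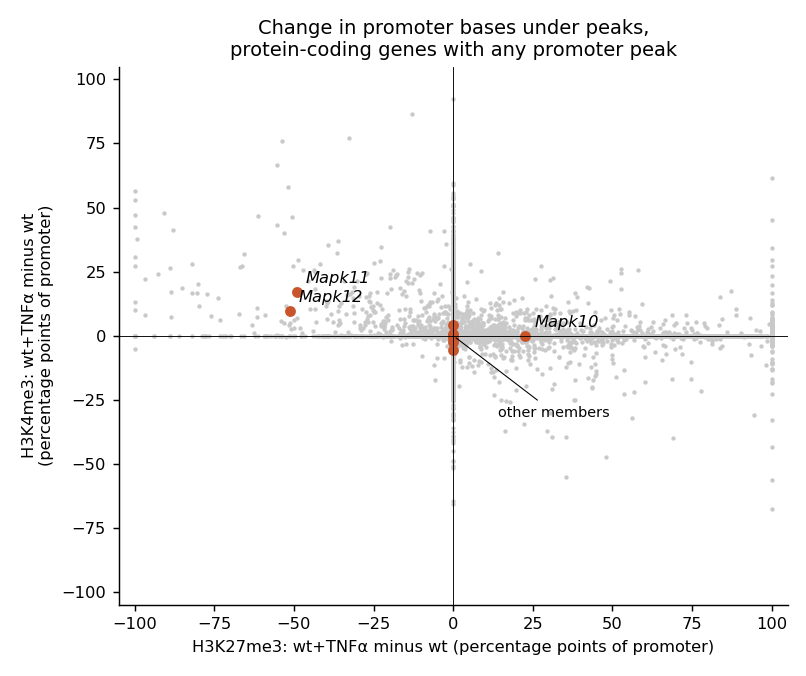
Change in the percentage of promoter bases under H3K27me3 (horizontal) and H3K4me3 (vertical), wt+TNFα minus wt, for 16165 protein-coding genes with any promoter peak (grey) and the 9 kinase genes (orange). Mapk11 and Mapk12 lie at upper left, with less H3K27me3 and more H3K4me3, Mapk10 lies to the right on the horizontal axis, and the other members lie on the vertical axis near zero.

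The rest of the pathway was read from 69 genes outside the 9 kinase genes, from TNF receptors to MAP kinase phosphatases. Promoter H3K4me3 was present at 62 of 69 in wt and 63 in wt+TNFα. Of the 69, 58 had H3K4me3 in both conditions with no H3K27me3, against 42.4% of protein-coding genes. H3K27me3 was lost by base at 3 (background 5.22%) and gained at 5 (20.6%), and H3K4me3 was gained at 51 (40.9%) and lost at 25 (21.1%). Since 63 of the 69 had H3K4me3 in wt+TNFα, the like background for the 51 gains is 79.9% of the protein-coding genes with such a peak, and the gains do not set the pathway apart. For the losses, the like background is 4633 of the 11066 protein-coding genes with promoter H3K4me3 in wt. Here 25 of 62 such genes lost bases, so the losses do not set the pathway apart either. Most of the pathway therefore had the same marks as the 6 kinase genes with H3K4me3 alone.

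Upstream of the kinases, all 8 genes of TNF receptors and adaptors had H3K4me3 in both conditions and no H3K27me3. At Tnfrsf1a, the main TNFα receptor of epithelium, H3K4me3 covered 20% of promoter bases in wt and 21% in wt+TNFα. At Tnfrsf1b, the second receptor, it covered 52.3% and 60.1%. All 16 MAP3K genes had H3K4me3 in both, and of these only Map3k12 differed by presence, with 28 bp of promoter under H3K27me3 in wt+TNFα alone. Both JNK-side MAP2K genes had H3K4me3 alone. Of 4 JNK scaffold genes 2 had H3K4me3, and the other 2, Mapk8ip1 and Mapk8ip2, had H3K27me3 in both conditions and were named after their values were seen.

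Downstream, 18 of 19 substrate genes had H3K4me3 in both conditions. Elk1, a transcription factor gene on chromosome X, had H3K27me3 over 0% of its promoter in wt and 100% in wt+TNFα, and the H3K27me3 lists differ on that chromosome as given above. Of 11 phosphatase genes 9 had H3K4me3. Dusp8, which encodes a phosphatase of JNK and p38, had H3K27me3 over 22.6% of its promoter in wt and 0% in wt+TNFα, from a wt peak with a fold enrichment of 1.82, at the 0.1th percentile of the list. Its H3K4me3 went from 59.2% to 63.8%. Dusp9, another phosphatase gene of the list, went the other way, from 7.25% to 100% under H3K27me3, and lies on chromosome X. It had no H3K4me3 and was named after its values were seen.

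Of 9 other MAPK and MAP2K genes, 7 had H3K4me3 in wt and 8 in wt+TNFα. The difference was Mapk15, which encodes the atypical kinase ERK8. Like Mapk12, it lies on chromosome 15 and had H3K4me3 in wt+TNFα alone, over 9.26% of its promoter bases in a peak of 596 bp (fold enrichment 10.2, 14.9th percentile). Its H3K27me3 went from 24.4% in wt, in a peak of 1573 bp (fold enrichment 2.16, 61.8th percentile), to 0%. The strongest H3K27me3 peaks at the promoters of Map3k12, Elk1, Dusp8 and Mapk15 had −log10 q of 1.88, 1.63, 0.36 and 1.46, short of the stated cut. Map2k1 had no listed peak of either mark in either condition, and it was named after its values were seen. It lies in a stretch of 0.101 Mb with no peak in any list, and the absence of a listed peak there is not read as absence of the marks.

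The calls at Mapk11 and Mapk12 rested on different parts of the processing. Loss of H3K27me3 was called at Mapk11 under all 12 alternative settings and at Mapk12 under 10 of them. Equal numbers of peaks and equal autosomal length remove wt+TNFα peaks of H3K27me3 alone, so these settings could not end a loss. It was not called at Mapk12 when whole peaks were subtracted or when H3K27me3 peaks with a −log10 q below 2 were removed, which includes its wt peak at 1.97. Gain of H3K4me3 was called under 10 of 12 at each gene. Beside the settings named above, whole-peak subtraction ended it at Mapk11.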

How the data were processed

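ChIP-seq for H3K27me3 and H3K4me3 was carried out on wt and wt+TNFα colonic organoids, and the 4 deposited peak lists were used. The labels give the condition and the mark of each sample. Per the study's methods, reads were trimmed (fastp) and mapped to GRCm38/mm10 (bwa-mem, BWA 2.2 in the submitters' processing notes), duplicates (SAMtools 1.11) and blacklisted regions were taken out, and MACS2 2.1.0 (the reporting summary names another version) called peaks with the input as control. The reporting summary adds that H3K27me3 peaks were called as broad peaks with a q-value cut that equals a −log10 q of 2. The fold enrichment in the deposited lists is a ratio of ChIP signal to local background, and each p-value and q-value was deposited by the authors as −log10. The deposited integer score column and the deposited summit offset of the narrow peaks follow the MACS2 format, and the score was not used. A spike-in, which the methods do not describe, is mentioned in the names of 3 of the 4 lists and not in that of H3K27me3 in wt+TNFα. The lowest −log10 q was 0.302 and 0.747 in the H3K27me3 lists, below that cut, and 7.00 and 6.95 in the H3K4me3 lists. Removing H3K27me3 peaks below the cut was 1 of the alternatives. Read depth is not in the peak lists. The reporting summary gives more reads for wt+TNFα than for wt in H3K4me3 and input, and this can change which peaks are called.

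Peaks were merged within each list and subtracted by base with bedtools 2.31.1. Genes came from GENCODE for GRCm38 (55450 genes, 141767 transcripts, 1000 bp on each side of every start, at least 1 bp of overlap). Promoter sequences came from RefSeq on GRCm38.p6. Python 3.11.15, numpy 2.4.6 and matplotlib 3.10.9 were used, and the scripts were tested on simulated lists. With 1 library per condition and mark, no test was run and no error is given. The 9 genes, the pathway and marker lists and the alternatives were chosen with earlier results of these data known. All 9 genes were named, and of the pathway genes those whose peak state differed between conditions and the TNF receptors. A few others were named after their values were seen, as stated beside them. Genes most like Mapk11 and Mapk12 were the 5 nearest over the 4 promoter percentages, of which 1 is not reported here. The inputs, the reads and RNA-seq were not analysed here.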

Additional observations from a re-analysis of the deposited data

How the results depend on the processing

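The counts of kinase genes were recomputed under 12 alternatives and the interval under 5. None of these gave the opposite sign for the interval or for the promoters of Mapk11 and Mapk12, but some gave 0. Over 11 alternatives the H3K27me3 change ranged from -85.3 to -29.2 percentage points at the Mapk11 promoters and from -100.0 to 0.0 at those of Mapk12, where whole peaks and the filter on −log10 q of at least 2 gave 0.0. The H3K4me3 change ranged from 0.0 to 31.5 at Mapk11 and from 0.0 to 39.0 at Mapk12. When whole peaks were subtracted, H3K27me3 was lost at 1 of the 9 genes (2 by base) and gained at 0 (1 by base), and H3K4me3 was lost at 0 and gained at 1 (4 each by base). The interval then moved by -9.6 percentage points for H3K27me3 (-39.9 by base) and by 4.1 for H3K4me3 (7.9 by base). With H3K27me3 peaks of −log10 q of at least 2, loss was called at 1, the interval moved by -9.6 points and 1 gene had H3K27me3 in wt+TNFα alone (0 without the filter). With peaks in the upper part (above the median) of each list by −log10 q, that number was also 1, H3K4me3 was gained at 2 genes and called in wt+TNFα alone at 0 (otherwise 1), and the interval moved by 0.0 points for H3K4me3. With equal covered length on the autosomes, H3K27me3 was gained at 0 genes and present in wt alone at 3 (otherwise 1), Mapk10 now among them and called as a loss, H3K4me3 was in wt+TNFα alone at 0, and the interval moved by 3.8 points for H3K4me3. The cause of these moves was not tested beyond the alternatives' own construction. With 1 start per gene or protein-coding transcripts alone, 2 genes had H3K27me3 in wt alone and 1 in wt+TNFα alone. Promoters with flanks of 2000 bp or 5000 bp gave 2 genes gaining H3K27me3, the second being Mapk8, and those of 5000 bp gave 0 with H3K4me3 in wt+TNFα alone. Promoters of 500 bp gave 2 genes losing H3K4me3, and an overlap of at least 200 bp gave 1. No paired analysis was possible because the labels carry no replicate numbers and each condition has 1 library per mark, so the spread between cultures is unknown and differences of edges or ranks cannot be held apart from it.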
